A study of Sus scrofa domesticus with 4 samples.

Results

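TFAP2C, ID1, ID2 and MET are genes that act on growth and differentiation, and 9 of the 43603 probes on the array carry a RefSeq accession of one of them: 2 for TFAP2C, 1 for ID1, 5 for ID2 and 1 for MET. They are 4 of the 3029 genes that could be named, and all 9 probes were bright enough to be tested. TFAP2C, ID1 and MET were selected on values of these arrays, for small p-values on the higher side and the same sign on every array. As processed here, that sign held for 1 of the 2 TFAP2C probes and for the probes of ID1 and MET. ID2 stands beside them as a relative of ID1. The treatment ratios are therefore given as a description with no test.

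The series holds 4 two-colour Agilent arrays of pig endometrium, the lining of the uterus. Mature Large White x Polish Landrace gilts of 7 to 8 months (4 in the study) were on day 15 to 16 of gestation, with conceptuses present. Slices of about 100 mg from the middle of the uterine horns were kept in culture medium for 2 h. Treated slices then had 10 nM orexin B for 24 h and untreated ones had none. Orexin B, or hypocretin, is a peptide that neurons of the hypothalamus make. Each array carries RNA of treated slices in one dye and of untreated slices in the other; treated RNA was labelled with Cy5 on arrays 1 and 3 and with Cy3 on arrays 2 and 4. The labels tie no animal to an array and describe duplicate cultures, so the arrays are the replicates, and a spread between them may be partly technical. An explant is a mixed tissue cut off from blood and ovary, so a ratio describes the slice and not one cell type.

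TFAP2C encodes AP-2 gamma, a transcription factor of trophoblast and of several epithelia. The ID proteins are helix-loop-helix proteins with no basic DNA-binding region; they pair with E proteins and keep them from binding DNA, and bone morphogenetic proteins induce their genes through SMAD transcription factors. MET is the receptor tyrosine kinase for hepatocyte growth factor, which connective tissue cells release and epithelial cells answer with growth and movement.

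Between 46.8% and 86.7% of spots were well above background in Cy5 and between 27.8% and 36.2% in Cy3, and array 2, at 46.8% in Cy5, came from another slide and another scan than the other 3 arrays. No spot was saturated. Of the lists of cell type markers, 9 of 9 epithelial genes on the array, 4 of 5 stromal, 4 of 4 smooth muscle, 6 of 6 macrophage and 5 of 5 endothelial genes were tested, that is, well above background throughout in at least 1 condition. The T and NK cell list had 3 of 8 genes on the array tested, and the conceptus and trophoblast list 5 of 12. Over all 13783 tested probes, limma called 0 (0%) at an adjusted p under 0.05, with 237 higher (1.72%) and 258 lower (1.87%) at an unadjusted p under 0.05. The smallest adjusted p was 0.999. Fewer cells of a type and less RNA per cell cannot be told apart in these ratios.

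TFAP2C had the highest ratio of the 4 genes, but its 2 probes did not give the same size. Probe A_72_P683856 had log2 ratios of treated over untreated of 2.14 on array 1, 0.41 on array 2, 1.43 on array 3 and 0.60 on array 4. The ratio was above 0 on each array, and both arrays with treated RNA in Cy5 lay above both with treated RNA in Cy3. The fitted ratio, which takes out the dye, was 1.14 ± 0.19 (moderated SE, n = 4 arrays; 95% interval 0.69 to 1.60), or 2.21-fold, with an SD of 0.80 over the arrays. Of all tested probes, 99.8% had a ratio at or below this one. TFAP2C, ID1 and MET were picked on this contrast, so their intervals and this rank are descriptions and not tests.

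The other TFAP2C probe, A_72_P278729, targets the same accession. It stood at 1.23 on array 1, -0.38 on array 2, 1.45 on array 3 and -0.08 on array 4, so it was higher in treated RNA where that RNA was in Cy5 and slightly lower where it was in Cy3. Its fitted ratio was 0.55 ± 0.18 (95% interval 0.14 to 0.97), or 1.47-fold, with an SD of 0.92 over the arrays. With loess the probes thus had the same fitted direction and disagreed in sign on arrays 2 and 4. In the authors' value table A_72_P278729 was at -0.50 on array 2 and 0.16 on array 4, so the probes differed in sign there on array 2 alone. Probe A_72_P683856 lay above A_72_P278729 by 0.91, 0.79 and 0.68 on arrays 1, 2 and 4, while on array 3 the difference was -0.02. The difference of their fitted ratios was 0.59, with an SD of 0.42 over the arrays.

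**Figure D1:**
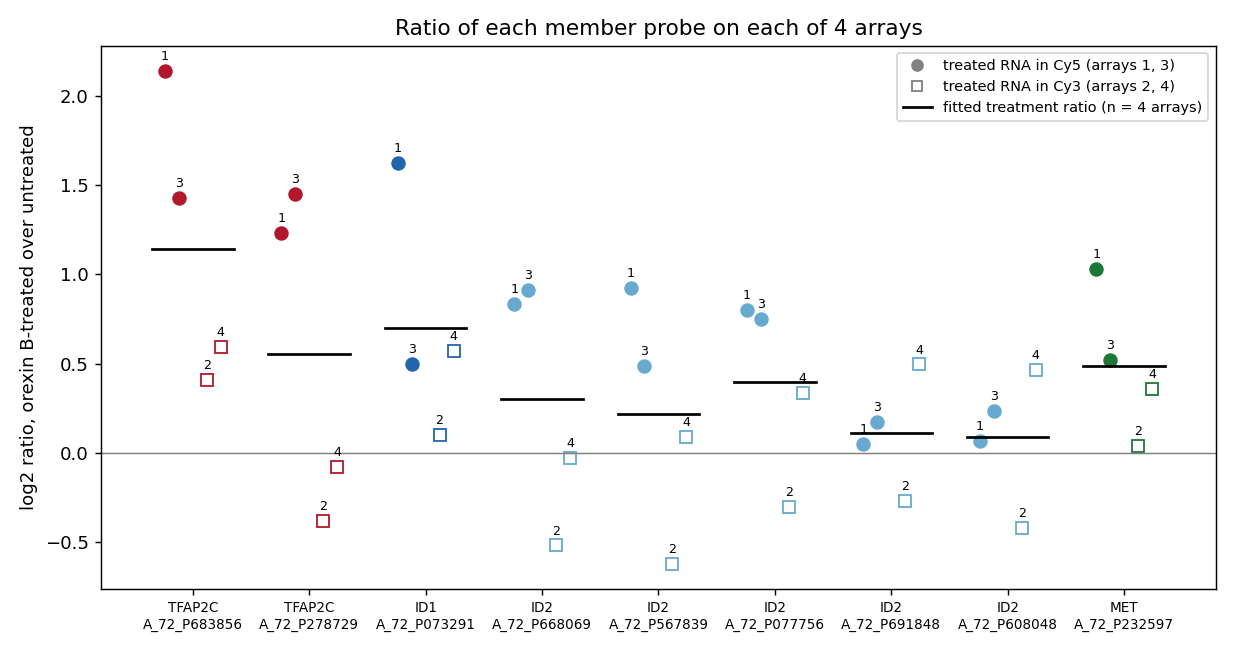
Log2 ratio of treated over untreated RNA (vertical axis) of each of the 9 probes on each array, with the array number above each point; filled circles are arrays with treated RNA in Cy5, open squares those with treated RNA in Cy3, and the line is the fitted ratio. For all 9 probes array 2 is the lowest point, and only A_72_P683856 of TFAP2C and the probes of ID1 and MET have 4 points above 0.

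The levels behind the TFAP2C ratios varied more in untreated than in treated RNA. On A_72_P683856 the normalised level, a log2 intensity set to a common scale across arrays, was 10.92, 10.99, 11.46 and 10.83 in treated RNA of arrays 1 to 4 and 8.77, 10.58, 10.03 and 10.23 in untreated RNA. The treated values all lay above the untreated ones, and the lowest value by far was untreated RNA of array 1. Means were 11.05 ± 0.28 (SD, n = 4) treated and 9.90 ± 0.79 untreated. Such a gap between conditions was seen for 31 of 13568 probes with 4 values (0.228%), and for 1 of the 9 probes here. On A_72_P278729 treated levels were 10.78, 10.54, 10.65 and 10.37 and untreated levels 9.54, 10.92, 9.20 and 10.45, so the conditions overlapped. Its untreated signal on array 3 was not well above background, and the other 7 of its 8 channel readings were. The scanned spot signal of A_72_P683856 was 3408 in Cy5 against 454 in Cy3 on array 1 and 6092 against 775 on array 3, but 1525 against 1554.5 on array 2 and 1636.5 against 1645 on array 4. Where treated RNA was in Cy3 the scanned signals of the 2 dyes were thus nearly equal, and the ratio above 0 on these arrays comes after the normalisation, which allows for the brighter Cy5 channel.

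ID1 was higher in treated RNA on each array, with array 1 far above the rest. Its probe A_72_P073291 stood at 1.62, 0.10, 0.50 and 0.57 on arrays 1 to 4. The fitted ratio was 0.70 ± 0.23 (95% interval 0.15 to 1.25), or 1.62-fold, with an SD of 0.65. It fell to 0.42 on leaving out array 1 and rose to 0.98 on leaving out array 3. Treated levels of 14.73, 14.73, 14.41 and 14.03 overlapped with untreated levels of 13.11, 14.63, 13.91 and 13.46. The untreated RNA of array 2 was above the treated RNA of arrays 3 and 4.

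ID2 had smaller ratios, and its 5 probes, which all target one transcript, spread from 0.09 to 0.40 with a median of 0.22. Probe A_72_P668069, the brightest, stood at 0.84, -0.52, 0.91 and -0.03 on arrays 1 to 4, with a fitted ratio of 0.30 ± 0.18 (95% interval -0.13 to 0.73). Its conditions overlapped in level, at 14.95 ± 0.61 (SD, n = 4) treated and 14.65 ± 0.34 untreated. The highest of the 5, A_72_P077756, was at 0.40 ± 0.19 and A_72_P567839 at 0.22 ± 0.20. All 3 intervals reached below 0.

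With loess, the 2 dimmest ID2 probes had another pattern over the arrays. A_72_P691848 (0.11 ± 0.20) and A_72_P608048 (0.09 ± 0.21) were highest on array 4, at 0.50 and 0.47, and stood at 0.05 and 0.07 on array 1, where the other 3 probes lay between 0.80 and 0.93. On array 2 all 5 were below 0, from -0.62 to -0.27. On arrays 1, 2, 3 and 4 the highest and lowest ID2 probe were 0.88, 0.35, 0.74 and 0.53 apart, so probes of one transcript differed on array 1 by more than the fitted ratio of any of them. With median centring in place of loess the same distances were wider, at 0.99, 0.49, 0.98 and 0.66. In the authors' value table they were 0.43, 0.24, 0.29 and 0.31. There A_72_P691848 stood at 0.70, -0.56, 0.65 and 0.13 and A_72_P608048 at 0.60, -0.62, 0.68 and 0.17 on arrays 1 to 4, so the separate pattern of these probes was not seen in that table. Without array 4, the loess ratio of A_72_P691848 was -0.08 and that of A_72_P608048 was -0.13. It was 0.04 for A_72_P567839, 0.18 for A_72_P668069 and 0.24 for A_72_P077756 without that array, and at its highest without array 2, at 0.40, 0.42 and 0.56.

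MET, the only receptor of the 4, was dim. Probe A_72_P232597 stood at 1.03, 0.04, 0.52 and 0.36 on arrays 1 to 4. All 4 values were above 0 with loess, with array 2 close to it, but array 2 was at -0.20 in the authors' value table. The fitted ratio was 0.49 ± 0.19 (95% interval 0.05 to 0.93), or 1.40-fold, with an SD of 0.41. Its mean signal was above that of 10.1% of tested probes. Treated RNA was well above background on 4 of 4 arrays but untreated RNA on 2 of 4, namely arrays 2 and 4 where it was in Cy5, so the ratios of arrays 1 and 3 rest on an untreated signal not well above background. Treated levels of 9.24, 9.25, 9.51 and 9.06 met untreated levels of 8.21, 9.21, 8.99 and 8.70. The overlap came from the untreated RNA of array 2, which lay above the treated RNA of array 4.

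**Figure D2:**
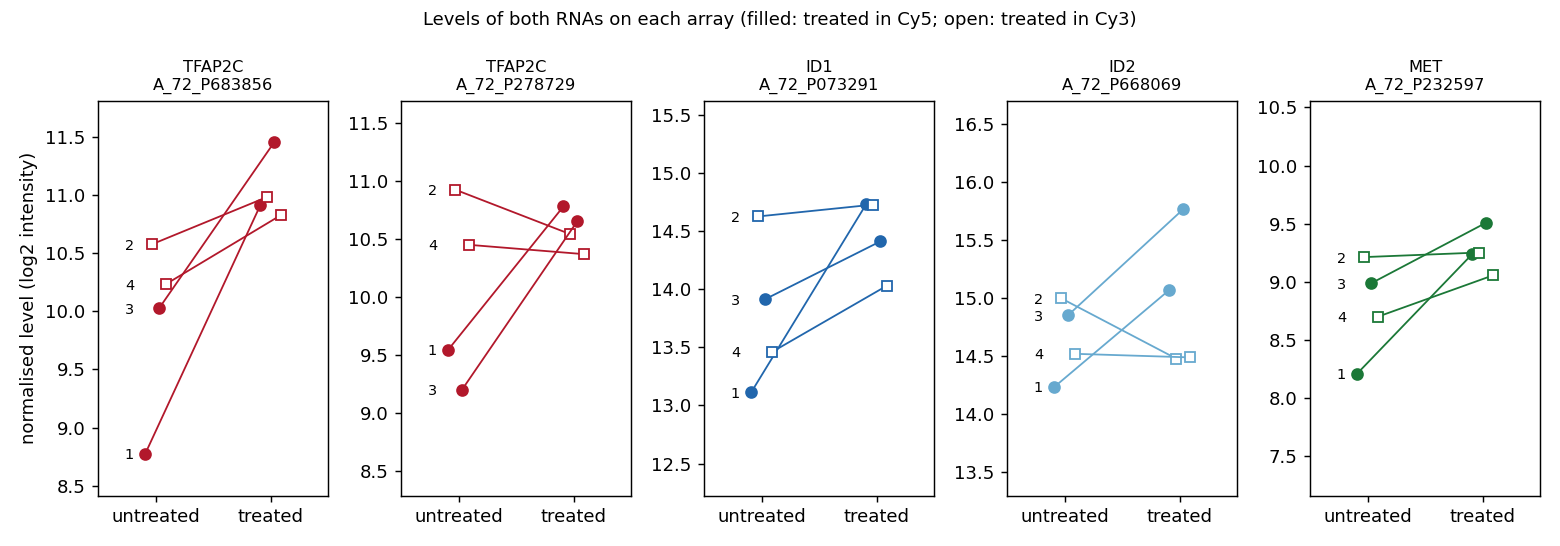
Normalised level (vertical axis, log2 intensity, one scale width in all panels) of untreated and treated RNA on each array for the TFAP2C, ID1 and MET probes and the brightest ID2 probe; a line joins the 2 RNAs of an array, filled circles mark treated RNA in Cy5 and open squares treated RNA in Cy3. The untreated values spread more than the treated ones in each panel but that of ID2, with SDs of 0.79 against 0.28 for TFAP2C A_72_P683856 and 0.43 against 0.19 for MET.

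The 9 probes shared much of their order over the arrays, which is a description, since the genes were picked on these ratios. A ratio above 0 on every array held for 3 of 9 probes (the higher TFAP2C probe, ID1 and MET), against 3.74% of all tested probes, and no probe of the 4 genes was below 0 on every array, against 3.67%. Both arrays with treated RNA in Cy5 lay above both with treated RNA in Cy3 for 6 of 9 probes, against 21.1%. The ratio was lowest on array 2 for 9 of 9 probes, against 24.2% of all tested probes, and highest on array 1 for 5 of 9, against 26.7%. Probes of one transcript share their RNA, so these are counts of probes and not of independent events. Array 2 differs from the others in slide, in scan and in the share of bright Cy5 spots, and the part of these in its low ratios was not tested. Without array 2 the ratios were 1.19 and 0.63 for the TFAP2C probes, 0.82 for ID1, 0.57 for MET and 0.30 to 0.56 for ID2. The untreated level varied more than the treated one for 7 of 9 probes, against 46.3% of all.

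The dye term, the log2 ratio of Cy5 over Cy3 that stays when treatment is taken out, was above 0 for 8 of the 9 probes. It was 0.64 (95% interval 0.18 to 1.10; limma adjusted p = 0.302) for TFAP2C A_72_P683856 and 0.79 (0.37 to 1.20; limma adjusted p = 0.290) for A_72_P278729. For the second of these the dye term was 1.42 times the treatment ratio. Among ID2 probes it was 0.58 for A_72_P668069 (limma adjusted p = 0.302), 0.49 for A_72_P567839 (limma adjusted p = 0.343), 0.38 for A_72_P077756, 0.06 for A_72_P608048 and -0.00020 for A_72_P691848. ID1 stood at 0.36 (95% interval -0.19 to 0.91) and MET at 0.29 (-0.15 to 0.73). Without array 1 these were 0.08 and 0.16, and without array 3 they were 0.64 and 0.42.

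No probe of these 4 genes had a dye term past the adjusted threshold, and none of the 13781 probes with a dye term did (0%). At an unadjusted p under 0.05, 4 of the 9 did (both TFAP2C probes, A_72_P668069 and A_72_P567839), against 14.1% of all probes. All 4 were brighter in Cy5, against 4.72% in that direction. The error of this test is the one by which TFAP2C, ID1 and MET were picked, and small errors favoured being picked. The dye term exceeded the treatment ratio in size for 3 of 9 probes, against 64.1% of all. TFAP2C, ID1 and MET were picked on their treatment ratios, so the picking favoured a low share here. The means by orientation, whose difference is the dye term doubled, show the same values another way. TFAP2C A_72_P683856 averaged 1.79 with treated RNA in Cy5 and 0.50 with treated RNA in Cy3, and A_72_P278729 averaged 1.34 and -0.23. ID1 averaged 1.06 and 0.34, MET 0.78 and 0.20, and the brightest ID2 probe 0.88 and -0.28, while ID2 A_72_P691848 averaged 0.11 in both.

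The directions rest on the dye given for each array in the labels. The labelling protocol, which is the same text for each array, leaves room to read treated RNA as Cy5 throughout. The authors' deposited values run the way of the dye labels, reversed against the scanner's Cy5 over Cy3 on arrays 2 and 4. With Cy5 throughout the ratios of A_72_P683856 and A_72_P278729 would be 0.64 and 0.79, that of ID1 0.36 and that of MET 0.29, and dye and treatment could not be told apart.

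**Figure D3:**
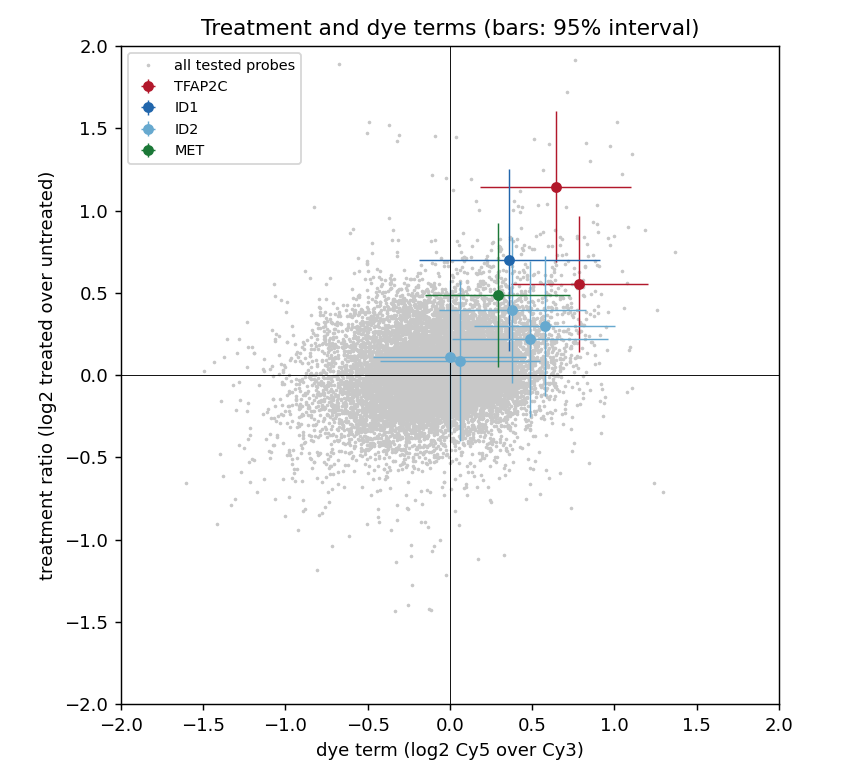
Fitted treatment ratio (vertical axis, log2 treated over untreated) against dye term (horizontal axis, log2 Cy5 over Cy3) for the tested probes in grey and the 9 probes of the 4 genes in colour, with 95% intervals. The coloured points lie above 0 on the vertical axis, where 53.1% of all tested probes lie, and 8 of 9 lie right of 0.

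No relative of the 4 genes passed the adjusted threshold. Of the AP-2 and trophoblast regulator list, 10 of 19 genes were on the array under a RefSeq name and 3 were tested, all with a ratio above 0 (median 0.34) and 0 called. Beside TFAP2C these were GATA2, a zinc finger factor of trophoblast and stroma, at 0.34 ± 0.20, and HAND1, a helix-loop-helix factor of trophoblast, at 0.08 ± 0.17. Without TFAP2C, which was picked on this contrast, the median of the list was 0.21. GATA2 was at 1.09 on array 3 and -0.16 on array 4. TFAP2B and GATA3 were on the array and not bright enough to test.

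All 4 ID genes were tested. ID3 stood at 0.61 ± 0.22, with 1.63, -0.26, 0.74 and 0.33 on arrays 1 to 4, close to ID1 on each array but for its sign on array 2. ID4 stood at -0.03 ± 0.20. The list they form with their helix-loop-helix partners had 4 of 19 genes on the array, 3 higher and 1 lower, with a median of 0.46 and 0 called. These counts include ID1, which was picked on this contrast. Without ID1 and ID2, 1 gene was higher and 1 lower, with a median of 0.29. Over all 1637 tested genes the median was -0.02 and 43.9% were above 0.

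Of the genes upstream of the ID proteins, more stood below 0 than above. Of the list of bone morphogenetic protein and TGF-beta ligands, receptors, transducers and inhibitors, 30 of 46 genes were on the array and 13 were tested, 4 higher and 9 lower, with a median of -0.07 and 0 called. The ligand gene BMP2 stood at 0.20 ± 0.21, with 1.13 on array 1 and -0.46 on array 2. BMP4 and BMP7 were not bright enough to test. Among the transducers, SMAD1 stood at -0.13 ± 0.17, SMAD3 at -0.24 ± 0.19 and SMAD4 at -0.23 ± 0.18. The 2 tested probes of SMAD3 ran from -0.24 to -0.10 and the 5 of SMAD4 from -0.23 to 0.02. The inhibitory SMAD7 was at -0.12 ± 0.17. The highest of the list was FST, which encodes the activin-binding protein follistatin, at 0.45 ± 0.21. Its other tested probe was at 0.12.

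Around MET, 10 of 33 genes of its signalling list were on the array and 9 were tested, 6 higher and 3 lower, with a median of 0.06 and 0 called. MET itself was the highest, and without it 5 were higher and 3 lower, with a median of 0.03. ETS1, a transcription factor that acts on the MET gene, was the lowest at -0.45 ± 0.23, a fit that lacks array 4 because of an outlier spot. SPINT1, which inhibits the proteases that activate hepatocyte growth factor, stood at 0.06 ± 0.23. The adaptor gene GRB2 stood at 0.14 ± 0.20 and STAT3 at -0.04 ± 0.17. The 2 tested probes of GRB2 were at -0.14 and 0.14, and the 2 of STAT3 at -0.15 and -0.04. Other growth factor genes of endometrium had 5 tested members, 1 higher and 4 lower (median -0.15, 0 called), from EGFR at 0.00 ± 0.20 to VEGFA at -0.30 ± 0.18.

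**Figure D4:**
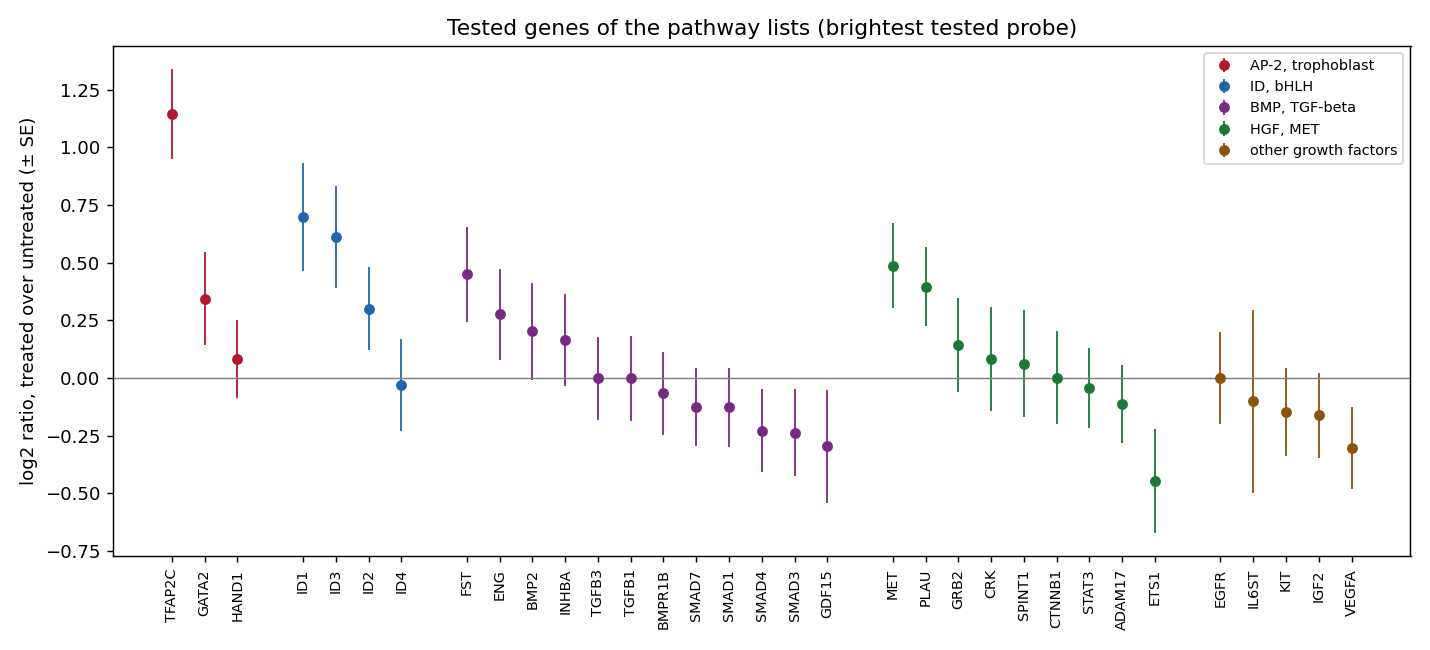
Fitted log2 ratio of treated over untreated RNA (vertical axis, ± moderated SE, n = 4 arrays, 3 for ETS1) of the tested genes of the 5 pathway lists (1 gene is left out), each by its brightest tested probe and ordered by ratio within a list. TFAP2C at 1.14, ID1 at 0.70, FST at 0.45 and MET at 0.49 stand highest in their lists, and ETS1 at -0.45 stands lowest in that of MET.

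TFAP2C is also a marker of trophoblast, which can cling to a slice of endometrium at attachment. Of 17 conceptus and trophoblast markers, 12 were on the array, 5 were tested and 2 (CYP19A2 and CDX2) were above background in no channel. Without TFAP2C, 2 of the other 4 were higher and 2 lower, with a median of -0.03. The lowest was IL1B2, which encodes the interleukin 1 beta that pig conceptuses release, at -0.42 ± 0.18 and lower on each array. The aromatase gene CYP19A1 stood at -0.15 ± 0.20 and was higher on 2 of 4 arrays. The 2 markers above 0 were GATA2 at 0.34 ± 0.20 and HAND1 at 0.08 ± 0.17. The summed intensity of these 4 ranged from 3293 to 5557 in treated and from 2965 to 4851 in untreated RNA over the arrays, so the conditions overlapped.

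The other lists of cell type markers gave medians from -0.51 to 0.22. Of 9 epithelial markers, 5 were higher and 4 lower (median 0.06), from MUC20 at 0.93 ± 0.44 to CLDN3 at -0.54 ± 0.21, and their summed intensity ranged from 58939 to 119110 treated and from 73878 to 146576 untreated. The 4 stromal markers were all above 0 by their brightest tested probes (median 0.22), from COL1A2 at 0.17 ± 0.20 to POSTN at 0.59 ± 0.20. Their sums were 18329 to 45367 treated and 16530 to 43851 untreated. The 6 tested probes of POSTN ran from 0.59 to 1.25, and the 6 of LUM from -0.12 to 0.24. Macrophage markers had 1 higher and 5 lower (median -0.51), from CD163 at 0.18 ± 0.22 to CD86 at -0.68 ± 0.19, with sums of 7133 to 10346 treated and 8107 to 18757 untreated. Smooth muscle markers had a median of -0.14 (4 tested, 1 higher), endothelial markers of -0.08 (5 tested, 1 higher) and T and NK cell markers of -0.27 (3 tested of 8 on the array, 0 higher). The part of cell composition in the 4 genes' ratios was not tested.

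The tested genes nearest to each of the 4 genes were found by the root mean square difference of the ratios over the 4 arrays, among 1603 named genes with a value on each array. Nearest to TFAP2C A_72_P683856 were NME1, which encodes a nucleoside diphosphate kinase, at a root mean square difference of 0.47, ID1 at 0.56 and FRZB, which encodes a secreted WNT antagonist, at 0.56. Even NME1, at 1.41, -0.20, 1.40 and 0.53 on arrays 1 to 4, differed in sign from TFAP2C on array 2. Nearest to ID1 was ID3 at 0.25, followed by FASN, the fatty acid synthase gene, at 0.29 and OAZ2, an ornithine decarboxylase antizyme gene, at 0.31. Nearest to the brightest ID2 probe were the cadherin gene CDH11 (0.15), the ribonuclease gene RNASE4 (0.15) and TPBG (0.16). Nearest to MET was NME2, a relative of NME1, at 0.09, with 0.86, 0.04, 0.52 and 0.40 on arrays 1 to 4. AXL, another receptor tyrosine kinase gene, followed at 0.16 and the protease inhibitor gene SERPINE2 at 0.17. All 12 of these genes had a dye term above 0, from 0.23 to 0.87, so likeness over 4 arrays includes likeness in dye.

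**Figure D5:**
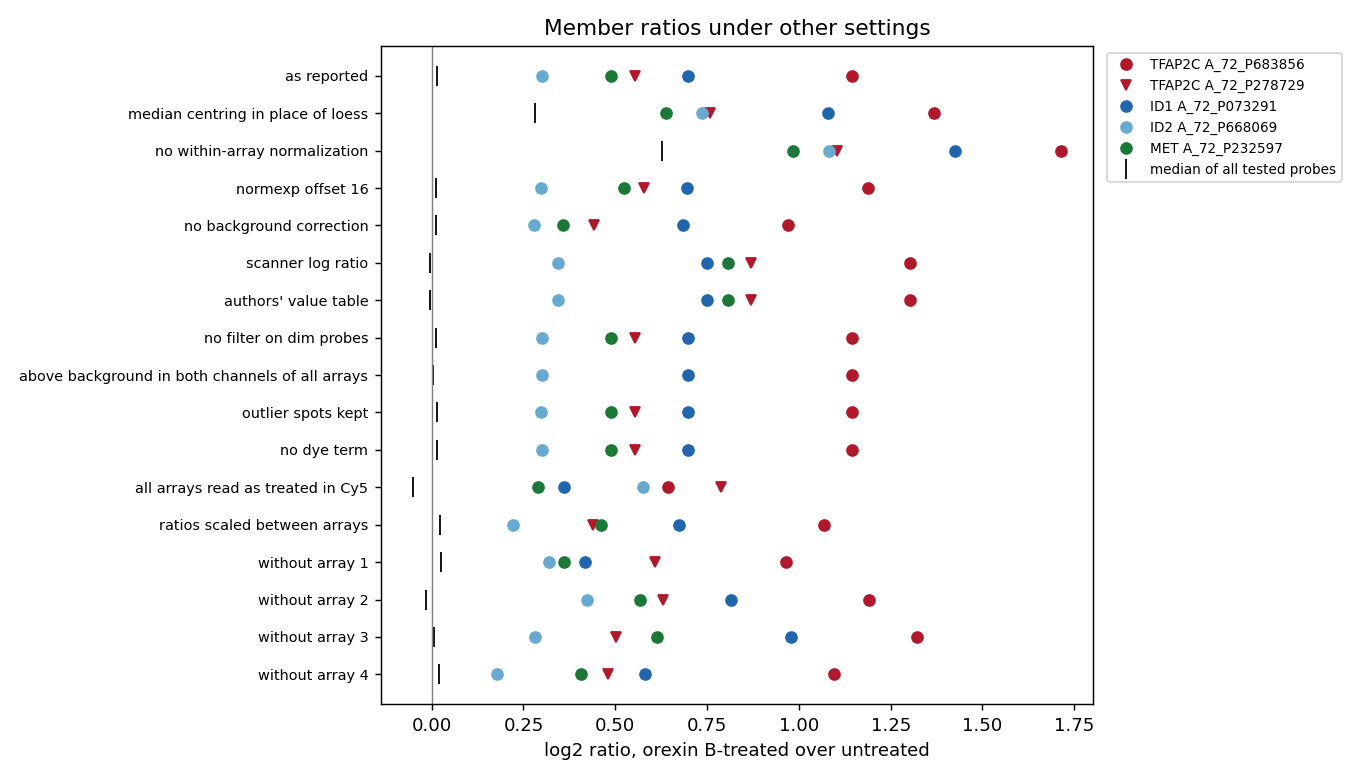
Fitted log2 ratio of treated over untreated RNA (horizontal axis) of the TFAP2C, ID1 and MET probes and the brightest ID2 probe under each processing setting (vertical axis), with the median of all tested probes as a black tick. The 5 probes stay right of that tick under each setting in which they have a value, and TFAP2C A_72_P683856 ranges from 0.64 to 1.71.

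In the authors' value table, TFAP2C stood at 1.30 and 0.87, ID1 at 0.75, MET at 0.81 and the 5 ID2 probes between 0.20 and 0.34, so the TFAP2C probes were 0.43 apart there against 0.59 with loess, and the log2 ratio of MET was 1.66 times that with loess. Leaving out 1 array at a time gave 0.97 to 1.32 and 0.48 to 0.63 for the TFAP2C probes, 0.42 to 0.98 for ID1 and 0.36 to 0.61 for MET.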

How the data were processed

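RNA of orexin B-treated and untreated endometrial slices was compared on 4 two-colour arrays. Per the file headers, the array design was 026440 and the deposited intensity of each spot and dye was extracted with version 10.7.3.1 of Agilent Feature Extraction. The log10 ratio of Cy5 over Cy3 in the same files is the scanner software's, per the file headers. In the authors' deposited value table the log2 values match the scanner's ratio on arrays 1 and 3 and its reverse on arrays 2 and 4, which the labels give as dye swaps, so they run treated over untreated. Its column medians are 0.18, 0.29, 0.01 and 0.03.

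Median spot signals were background-corrected by normexp (offset 50) and normalised by loess within each array with limma 3.58.1 in R 4.3.3. Median signals took the place of mean signals, which are not among the columns used here. Control and outlier spots had weight 0, outlier spots were left out, and spots of a probe were averaged (43803 spots, 43603 probes). A probe was tested if well above background on all 4 arrays in at least 1 condition. Limma's lmFit and eBayes fitted treatment and dye, with 2 residual and 5.09 prior degrees of freedom. The fit was also run on simulated log ratios with variances drawn from its own prior, which leaves normalisation and slide differences unchecked. The ± is the moderated SE, which is smaller than the scatter over arrays where the dye term is large. P-values are two-sided and adjusted by Benjamini-Hochberg over all tested probes at 0.05. Levels are loess values after Aquantile scaling. The number of arrays limits the precision.

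Probes were named by unversioned accession through the RefSeq gene table of Sscrofa11.1 (6700 of 43603); no coordinates are given, since the headers name no build. A gene in a list is its tested probe of highest mean signal. The members and lists were chosen with earlier results of these data known. The naming rule covered all probes of the 4 genes, the highest and lowest tested gene of each list, close relatives (TFAP2, ID, BMP, SMAD genes and HGF) where tested, and the 3 nearest genes. Outside this rule, GRB2, STAT3, SPINT1, CYP19A1, GATA2 and LUM were added with their values known. One gene named by this rule is counted in its list and not reported here by name. The alternatives tried are in the closing section.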

Additional observations from a re-analysis of the deposited data

How the results depend on the processing

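The 9 treatment ratios were recomputed under up to 17 other settings, and 138 of 146 values moved by less than 1 SD over arrays. Some of these values could not move. The filters on brightness do not enter a probe's ratio, nor does the dye term with orientations evenly split. Gene means equal the probe for ID1 and MET. The scanner's ratio and the authors' table hold nearly the same values and count separately. The SD is also a wide limit, since it includes the dye effect. For the TFAP2C probes it was 0.80 and 0.92, against SEs of 0.19 and 0.18. Within it lay A_72_P683856 at 0.64 with all arrays read as treated in Cy5 and A_72_P278729 at 1.10 without within-array normalisation. The exceptions came without within-array normalisation, at 1.42 for ID1, 0.98 for MET and, for ID2, 1.08 (A_72_P668069), 0.95 (A_72_P567839), 1.13 (A_72_P077756), 0.88 (A_72_P691848) and 0.79 (A_72_P608048), and with median centring, at 0.54 for A_72_P691848. These settings moved the median of all tested probes to 0.63 and 0.28, with 99.2% and 89.0% of probes above 0 against 53.1%. Relative to that median, the TFAP2C probes stood at 1.09 and 0.48, ID1 at 0.80 and MET at 0.36 under both. The sign turned in 3 values of the 2 dimmest ID2 probes: without array 4, and for A_72_P691848 also with all arrays read as treated in Cy5.

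Called treatment effects, 0 of 13783 probes as reported, were 2 with the mean of each gene's probes, over the 1637 tested genes. On leaving out each array they ranged from 0 to 15, with 15 without array 2. Called dye effects, 0 of 13781 probes as reported, were 6869 with median centring, 11471 without normalisation and 12 with gene means. They ranged from 0 to 6 on leaving out each array. The dye term of ID2 A_72_P691848, at -0.00020 as reported, was 1.38 with median centring, 1.80 without normalisation, 0.011 with an offset of 16, 0.44 with the scanner's ratio and the authors' table (0.44), 0.00046 with outlier spots kept, and between -0.19 and 0.19 on leaving out each array (0.03 without array 1). That of A_72_P608048 was -0.16 without array 2. The cause was not tested. Each ratio already pairs the treated and untreated RNA of an array. MET and TFAP2C A_72_P278729 lack a value where every channel must be above background; for MET, 2 readings of untreated RNA below that level limit the ratio.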
